A study of Mus musculus with 9 samples.

Results

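The zinc and iron handling genes of mouse cardiac endothelium were followed across 9 RNA sequencing libraries. They were taken by symbol: all rows for the zinc transporter families Slc30a and Slc39a, the metallothioneins Mt1 and Mt2, the zinc sensor Mtf1, and 11 genes of iron uptake, storage, export and control. The rule uses names only and no measured value, and it found 34 members among the 18094 genes of the deposited table. Of these, 31 had enough counts to be tested. Slc39a2, Slc39a5 and Slc39a12 did not, with 0 to 13 counts in a library.

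Endothelial cells were taken from fresh hearts with magnetic beads and read as fragmented polyA RNA. The hypertensive line BPH/2J was sampled at the ages of 4 and 22 weeks, and the normotensive line BPN/3J at 22 weeks only, with 3 libraries in each of the 3 groups. The design asks how endothelium of the hypertensive line differs from the normotensive line, and how it differs between the ages. There was no BPN/3J group at 4 weeks, so strain and age cannot be told apart when 4-week BPH/2J is set against BPN/3J. Every 4-week difference from BPN/3J given below is a difference from BPN/3J at 22 weeks. Each blood pressure state is represented by 1 inbred line. Separate animals are not named for the replicates in the labels. The spread that the p-values rest on is therefore that of libraries and may be technical. Libraries held 28806840 to 32913813 counts. Summed levels of 10 endothelial markers were 10055 to 10637 CPM (counts scaled to a common library total) in BPN/3J, 12274 to 12795 in 4-week BPH/2J and 12796 to 13029 in 22-week BPH/2J. By the test given below, 6 of the 10 were higher and 2 lower in 22-week BPH/2J than in BPN/3J (median log2 difference 0.23). At 4 weeks 3 were higher and 1 lower than in BPN/3J (0.03). Between ages 3 were higher and 1 lower at 22 weeks (0.06). Among all tested genes 38.0%, 53.1% and 41.0% were called in these comparisons. The part of the endothelial share in the member differences was not tested. Replicate 1 of 4-week BPH/2J stood apart from the other libraries of its group, with 2.63% mitochondrial counts against 1.19% and 1.33% and summed fibroblast markers of 501 CPM against 320 and 314. Without it, members called higher and lower numbered 7 and 8, 12 and 9, and 4 and 10 in the 3 comparisons below, against 7 and 8, 12 and 9, and 4 and 9 with it. All genes called rose to 7117, 8682 and 7383 of 15578 tested without it, from 5810, 8115 and 6257 of 15277 with it.

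Zinc enters the cytosol through Slc39a (ZIP) carriers and leaves it through Slc30a (ZnT) carriers, either out of the cell or into organelles. Metallothioneins are small cysteine-rich proteins that bind zinc and copper, and Mtf1 is the transcription factor that, when zinc binds it, turns on metallothionein genes and Slc30a1 through short promoter motifs called metal response elements. Iron bound to transferrin enters through the transferrin receptor Tfrc, is reduced by Steap3 and leaves the endosome through Slc11a2. It is stored in ferritin and leaves the cell through ferroportin, Slc40a1, helped by the ferroxidases Cp and Heph. The iron regulatory proteins Aco1 and Ireb2 bind messenger RNAs of ferritin, ferroportin and Tfrc when iron is low. Endothelium stands between the blood and the heart muscle, so both uptake from plasma and export to the tissue pass through it.

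The promoters of the textbook Mtf1 targets among the members are shown because these genes were lower in BPH/2J at both ages, as described below. Each run is the 250 bases before the RefSeq start, 5′ to 3′ on the plus strand of GRCm38.p6, at chr8:94178839-94179088 for Mt1, chr8:94172368-94172617 for Mt2 and chr1:191906531-191906780 for Slc30a1. Capitals mark matches to the metal response element cores TGCACNC or TGCGCNC on either strand.
Mt1: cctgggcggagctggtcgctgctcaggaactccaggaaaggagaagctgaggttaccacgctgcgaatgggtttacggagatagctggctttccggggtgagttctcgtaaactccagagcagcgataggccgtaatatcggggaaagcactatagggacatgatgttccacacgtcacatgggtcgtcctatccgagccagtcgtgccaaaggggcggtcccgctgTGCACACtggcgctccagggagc
Mt2: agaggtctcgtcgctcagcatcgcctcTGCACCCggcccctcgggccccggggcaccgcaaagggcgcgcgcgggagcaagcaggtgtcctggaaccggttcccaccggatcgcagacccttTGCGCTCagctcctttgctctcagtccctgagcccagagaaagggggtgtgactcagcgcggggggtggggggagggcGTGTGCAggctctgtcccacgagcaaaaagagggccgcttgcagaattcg
Slc30a1: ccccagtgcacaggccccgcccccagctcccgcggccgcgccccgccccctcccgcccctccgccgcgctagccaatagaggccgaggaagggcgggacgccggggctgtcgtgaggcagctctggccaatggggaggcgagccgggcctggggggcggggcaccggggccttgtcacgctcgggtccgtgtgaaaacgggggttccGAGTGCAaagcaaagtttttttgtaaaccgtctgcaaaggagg

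Windows of 300 bases, 250 before and 50 after the start, were searched in the RefSeq table of that build. Mt2 held 4 matches, of which 3 lie in the run shown. Mt1 held 3 matches, 1 of them in the run shown and the others reaching past the start. Slc30a1 held 2, with 1 in the run shown. Of all 32851 windows, 25.7% held at least 1 match to either core, 7.11% at least 2, 1.97% at least 3 and 0.517% at least 4. TGCACNC alone was found in 12.6% of windows and TGCGCNC in 15.4%. Of the members, 28 had a window in the table, with 38 windows between them, and 12 members held a match in 13 windows. Slc30a4, a vesicular zinc carrier, also held 3. A match is a description of letters and not a measured binding site. GENCODE lists further starts downstream of the RefSeq start, at 122 and 152 bases for Mt1, 46 and 242 for Mt2 and 475 for Slc30a1, for which other bases would be upstream.

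A gene is called higher or lower where edgeR's quasi-likelihood test gave a Benjamini-Hochberg adjusted p under 0.05, adjusted over all 15277 tested genes, and the same test stands behind every adjusted p given. At 22 weeks, 15 of the 31 tested members (48.4%) differed between the lines, against 38.0% of all tested genes. Of these, 7 were higher and 8 lower in BPH/2J, where 19.8% and 18.2% of all genes were higher and lower. Mt1, Mt2 and Slc11a1 were lower by more than 2-fold. In 4-week BPH/2J against BPN/3J, 21 members (67.7%) were called, 12 higher and 9 lower, against 53.1% of all genes, 27.8% higher and 25.3% lower. Between 22-week and 4-week BPH/2J, 13 members (41.9%) were called, 4 higher and 9 lower at 22 weeks, against 41.0% of all genes, 19.9% higher and 21.1% lower. This share lies next to the background. The median log2 difference of the members was 0.09, 0.10 and -0.08 in the 3 comparisons, beside 0.02, 0.00 and 0.01 over all tested genes.

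The members' libraries did not overlap between groups for 19 of 31 members at 22 weeks, 23 in the 4-week comparison with BPN/3J and 17 between ages. Among all genes 55.7%, 59.2% and 51.2% did not overlap. Any pair of the 3 comparisons shares the libraries of a group, so the values are given side by side and are not independent. Over the 3 comparisons, 7 members were called in 0, 3 in 1, 17 in 2 and 4 in 3 (Aco1, Hfe, Slc11a1 and Slc39a1). With the mean log2 CPM of 12 cardiomyocyte markers as a covariate, the 4-week comparison with BPN/3J fell from 12 higher and 9 lower members to 3 and 4. Over all tested genes it fell from 4253 higher and 3862 lower to 1795 and 1394. Summed levels of these markers were 810 to 1006 CPM in BPN/3J, 341 to 565 in 4-week and 470 to 563 in 22-week BPH/2J. The covariate thus largely follows the lines, and its effect and that of the line cannot be told apart. Leaving out single libraries moved the 9 members lower at 22 than at 4 weeks by more than 1.5 times: 5 were lower without replicate 2 or without replicate 3 of 4-week BPH/2J, 3 without replicate 1 and 4 without replicate 3 of 22-week BPH/2J. Over all tested genes those lower between ages fell as well, from 3218 to 2618, 2371, 2359 and 2493 in these fits.

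**Figure D1:**
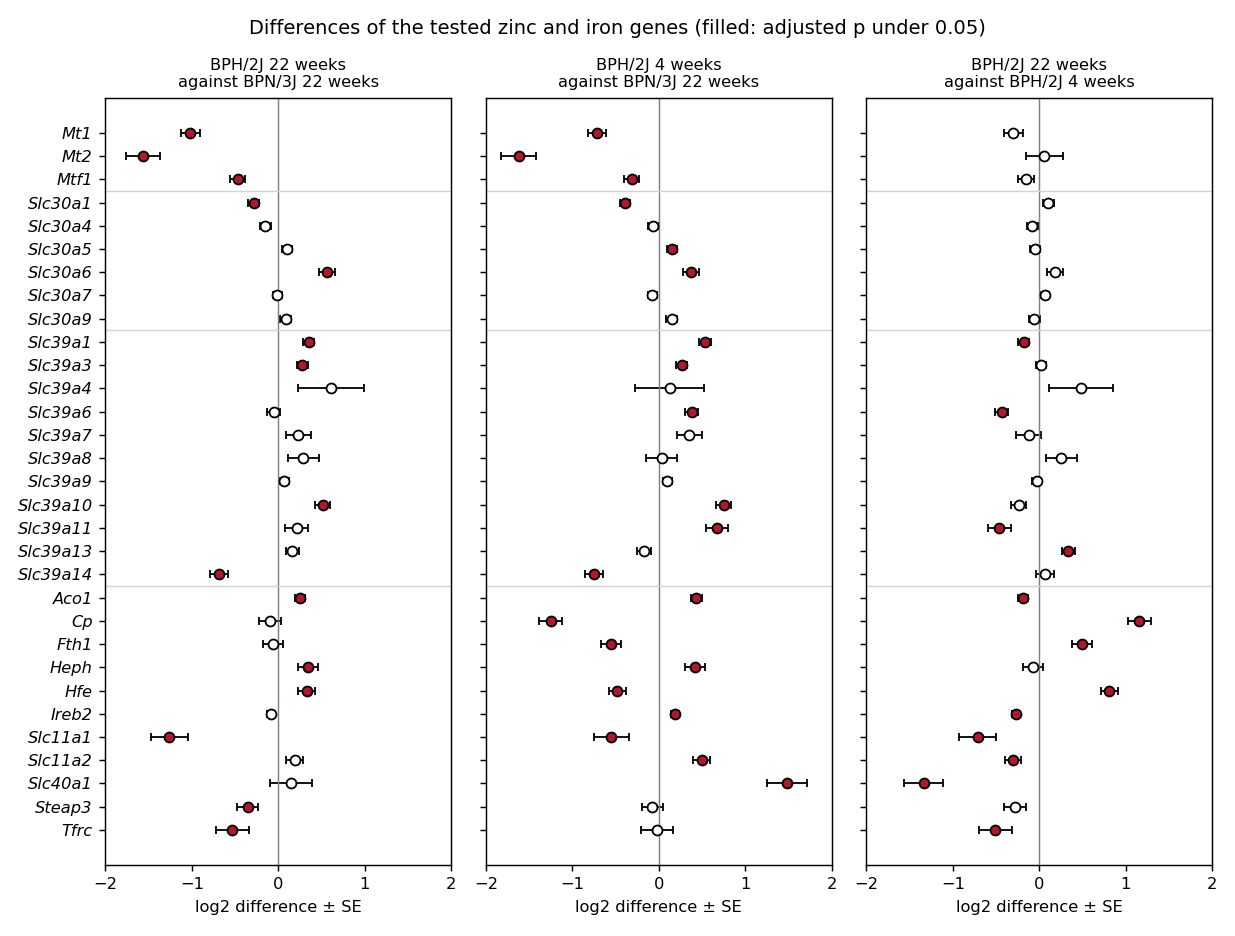
Log2 difference ± SE (horizontal axes, log2 scale) of the 31 tested members in the 3 comparisons, in rows ordered as metallothioneins and Mtf1, Slc30a, Slc39a and iron genes; filled points have an adjusted p under 0.05. Mt1, Mt2, Slc30a1 and Slc39a14 are filled and to the left in both comparisons with BPN/3J and open between ages, where Mt1 lies at -0.30, whereas Cp, Fth1, Hfe and Slc40a1 take opposite sides in the 4-week and the age comparison.

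The transcripts of the zinc buffer were lower in BPH/2J of both ages than in 22-week BPN/3J. Mt1, Mt2 and Mtf1 were all lower than in BPN/3J in 22-week BPH/2J (3 of 3, beside 18.2% of all genes). The same held in 4-week BPH/2J (3 of 3, beside 25.3%), where strain and age cannot be told apart. Between the ages of BPH/2J 0 of 3 were called by edgeR, beside 41.0% of all genes. At an unadjusted p under 0.05 the age count was 1 of 3 (Mt1), and DESeq2 and limma-voom also called 0 of 3. Mt1 stood at 12.0, 14.1 and 13.5 CPM in BPN/3J, at 7.50, 7.72 and 8.87 in 4-week BPH/2J and at 6.32, 6.31 and 6.96 in 22-week BPH/2J. No BPH/2J library reached the lowest BPN/3J library. The 22-week difference of Mt1 was -1.02 ± 0.11 on the log2 scale (SE, n = 3 per group; adjusted p = 6.91e-05) and the 4-week difference was -0.72 ± 0.11 (adjusted p = 0.00029). Between ages the groups of Mt1 did not overlap, with a difference of -0.30 ± 0.11 and an adjusted p of 0.0530, which became 0.0345 at -0.34 without replicate 1 of 4-week BPH/2J.

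Mt2, the neighbouring metallothionein gene, stood at 3.24, 4.13 and 3.54 CPM in BPN/3J, 1.01, 1.10 and 1.41 in 4-week BPH/2J, and 1.10, 1.13 and 1.45 in 22-week BPH/2J, counts of 31 to 119 per library. The BPH/2J ages overlapped, and all of their libraries lay below BPN/3J. Mt2 was 2.96-fold lower at 22 weeks (log2 difference -1.57 ± 0.20, adjusted p = 0.000193) and 3.08-fold lower at 4 weeks (-1.62 ± 0.20, adjusted p = 6.76e-05). Its log2 difference between ages was 0.06 ± 0.22 (adjusted p = 0.853). Mtf1 itself showed a smaller difference, at 35.8, 41.2 and 41.3 CPM in BPN/3J, 27.8, 34.0 and 33.2 at 4 weeks and 29.4, 27.5 and 28.5 at 22 weeks. The log2 differences of Mtf1 from BPN/3J were -0.47 ± 0.09 at 22 weeks (adjusted p = 0.00229) and -0.32 ± 0.09 at 4 weeks (adjusted p = 0.0118). Between ages it was -0.15 ± 0.09 (adjusted p = 0.193), or -0.24 (adjusted p = 0.0247) without replicate 1 of 4-week BPH/2J.

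Metallothionein genes are also known to respond to glucocorticoids, and a list of 10 glucocorticoid receptor targets was read beside them. All 10 were lower in both comparisons with BPN/3J. Between ages, where the metallothioneins were not called, 4 targets were higher and 4 lower at 22 weeks, with log2 differences of -1.06 to 1.82. The summed level of the targets was 5263 to 5540 CPM in BPN/3J, 2178 to 2689 in 4-week and 2166 to 2414 in 22-week BPH/2J. None was at 0, and Sgk1, the most abundant, stood at 1369 ± 152 CPM in BPN/3J, 785 ± 111 at 4 weeks and 630 ± 33.7 at 22 weeks. Markers of cardiomyocytes were lower as well, summing to 810 to 1006 CPM in BPN/3J, 341 to 565 at 4 weeks and 470 to 563 at 22 weeks, with 10 and 8 of 12 called lower. The part of either in the metallothionein result was not tested. With the cardiomyocyte covariate Mt1 kept its 22-week call (-1.11, adjusted p = 0.00343) and lost its 4-week call (-0.86, adjusted p = 0.0652), and Mtf1 at 4 weeks was -0.66 (adjusted p = 0.0467). In bulk RNA fewer cells of a type and less RNA per cell cannot be told apart. Mt2 shares 432 exon bases with the opposite-strand gene Gm45774 and Mtf1 shares 721 with 1110065P20Rik. No source used here states that counting used strand, so reads of such partners cannot be told apart.

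**Figure D2:**
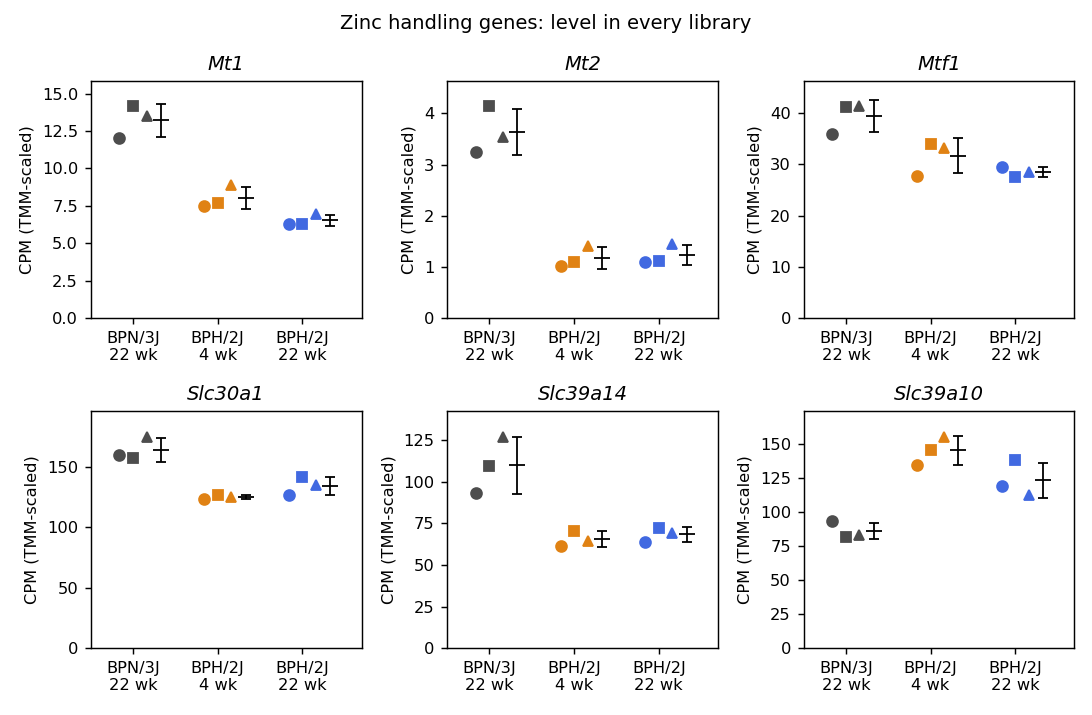
Level of 6 zinc genes in every library (vertical axes, CPM after TMM scaling, from 0); circles, squares and triangles are replicates 1, 2 and 3 of a group, and the dash with a bar is the mean ± SD (n = 3). For Mt1, Mt2, Slc30a1 and Slc39a14 every BPH/2J library lies below every BPN/3J library, and for Slc39a10 every BPH/2J library lies above them.

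Among the exporters of the Slc30a family, 6 of 6 members were tested. At 22 weeks Slc30a6 was higher and Slc30a1 lower in BPH/2J. At 4 weeks Slc30a5 and Slc30a6 were higher and Slc30a1 lower than in BPN/3J, and 0 of 6 differed between ages, also at an unadjusted p under 0.05 and with DESeq2 or limma-voom. The family thus had 2, 3 and 0 of 6 called, beside 38.0%, 53.1% and 41.0% of all genes. Slc30a1, the exporter of the plasma membrane and an Mtf1 target, stood at 160, 157 and 175 CPM in BPN/3J, 123, 126 and 125 in 4-week BPH/2J and 127, 142 and 135 in 22-week BPH/2J. Every BPH/2J library lay below every BPN/3J library. The log2 difference of Slc30a1 was -0.29 ± 0.06 at 22 weeks (adjusted p = 0.00479) and -0.39 ± 0.06 at 4 weeks (adjusted p = 0.000392). Its exons share 468 bases with 1700034H15Rik on the other strand, which was counted at 3.69 CPM.

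Slc30a5 and Slc30a6 form a pair that loads zinc into the early secretory pathway. Slc30a6 was at 12.2 ± 1.40 CPM in BPN/3J, 15.9 ± 0.504 at 4 weeks and 18.1 ± 0.673 at 22 weeks, with log2 differences from BPN/3J of 0.38 ± 0.09 (adjusted p = 0.00603) and 0.56 ± 0.09 (adjusted p = 0.00104). The 3 groups of Slc30a6 did not overlap. Its 4-week call was lost with the cardiomyocyte covariate (0.43, adjusted p = 0.217). Slc30a5 differed by 0.15 ± 0.06 at 4 weeks (adjusted p = 0.0414), a call that was lost without any 1 of 8 libraries, with adjusted p up to 0.127 without replicate 3 of BPN/3J. It was also lost with DESeq2 (adjusted p = 0.0621) and with median-of-ratios (adjusted p = 0.0539) or upper-quartile scaling (adjusted p = 0.0550), and was 0.24 (adjusted p = 0.247) with the covariate. Slc30a5 kept its call without replicate 1 of BPN/3J. Slc30a4, Slc30a7, which serves the Golgi, and Slc30a9, a mitochondrial carrier, were called in no comparison, with log2 differences of -0.15 to 0.15.

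Of the importers of the Slc39a family, 11 of 14 members were tested. Slc39a1, Slc39a3 and Slc39a10 were higher and Slc39a14 lower at 22 weeks. At 4 weeks Slc39a6 and Slc39a11 joined the higher genes, with Slc39a14 again lower. Between ages Slc39a13 was higher and Slc39a1, Slc39a6 and Slc39a11 lower at 22 weeks. The family thus had 4, 6 and 4 of 11 called, beside 38.0%, 53.1% and 41.0% of all genes. Slc39a10 stood at 93.4, 82.2 and 83.7 CPM in BPN/3J, 135, 146 and 156 at 4 weeks and 119, 138 and 113 at 22 weeks. All BPH/2J libraries lay above BPN/3J, and the ages of BPH/2J overlapped. The log2 difference of Slc39a10 from BPN/3J was 0.52 ± 0.09 at 22 weeks (adjusted p = 0.00123) and 0.75 ± 0.09 at 4 weeks (adjusted p = 4.81e-05). Both calls were lost with the cardiomyocyte covariate (0.27, adjusted p = 0.145, and 0.38, adjusted p = 0.165). Between ages Slc39a10 was at the threshold (-0.24 ± 0.09, adjusted p = 0.05004, not called). It was called without replicate 1 of 4-week BPH/2J (-0.29, adjusted p = 0.0204) and without replicate 2 of 22-week BPH/2J (-0.32, adjusted p = 0.0160), and by DESeq2 (adjusted p = 0.0479) and limma-voom (adjusted p = 0.0486).

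Slc39a14, which carries iron and manganese as well as zinc, ran the other way. It was at 93.1, 110 and 127 CPM in BPN/3J, 61.3, 70.6 and 64.6 at 4 weeks and 63.8, 72.6 and 69.0 at 22 weeks. The BPH/2J ages overlapped and both lay below BPN/3J. Its log2 difference from BPN/3J was -0.68 ± 0.10 at 22 weeks (adjusted p = 0.000664) and -0.75 ± 0.11 at 4 weeks (adjusted p = 0.000179), and 0.06 ± 0.11 between ages (adjusted p = 0.660). Slc39a8, its nearest relative in substrates, was scarce at 1.96, 2.05 and 1.82 CPM in BPN/3J, 2.02, 1.90 and 2.06 at 4 weeks and 2.53, 1.90 and 2.71 at 22 weeks. The groups of Slc39a8 overlapped and it was called in no comparison.

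Slc39a1, a zinc importer of the cell surface, was at 78.9 ± 5.47 CPM in BPN/3J, 114 ± 4.64 at 4 weeks and 101 ± 4.60 at 22 weeks. It was higher than in BPN/3J at 22 weeks (0.35 ± 0.07, adjusted p = 0.00206) and at 4 weeks (0.53 ± 0.07, adjusted p = 6.88e-05). Between ages Slc39a1 was lower at 22 weeks (-0.18 ± 0.06, adjusted p = 0.0457). That age call was lost without replicate 1 of BPN/3J or any BPH/2J library, with adjusted p of 0.0513 to 0.186, and with upper-quartile scaling (adjusted p = 0.0968), no low-count filter (adjusted p = 0.0638) or the cardiomyocyte covariate (adjusted p = 0.0768). Slc39a3, a related surface importer, was at 43.7 ± 0.588 CPM in BPN/3J, 52.4 ± 3.35 at 4 weeks and 53.0 ± 0.828 at 22 weeks, and was higher in BPH/2J at 4 weeks (0.26 ± 0.06, adjusted p = 0.00352) and 22 weeks (0.28 ± 0.06, adjusted p = 0.00420). Neither call of Slc39a3 held with the cardiomyocyte covariate, at 0.03 (adjusted p = 0.893) and 0.13 (adjusted p = 0.315).

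Slc39a6, a close relative of Slc39a10, and Slc39a11, an intracellular carrier, were higher in 4-week BPH/2J than in either other group. Slc39a6 was at 14.6 ± 0.790, 19.1 ± 0.684 and 14.1 ± 0.289 CPM in BPN/3J, 4-week and 22-week BPH/2J, and its log2 difference was 0.38 ± 0.08 between 4-week BPH/2J and BPN/3J (adjusted p = 0.00160) and -0.44 ± 0.08 between ages (adjusted p = 0.00124). Slc39a11 stood at 8.74, 7.19 and 8.98 CPM in BPN/3J, 14.9, 11.7 and 13.2 at 4 weeks and 8.50, 10.4 and 10.0 at 22 weeks. The 4-week libraries of Slc39a11 lay above all others. Its differences were 0.67 ± 0.13 (adjusted p = 0.00141) and -0.46 ± 0.13 between ages (adjusted p = 0.0157), the latter lost without replicate 1 of 22-week BPH/2J (-0.37, adjusted p = 0.0709). The 4-week calls of both genes were lost with the cardiomyocyte covariate, where Slc39a6 was at 0.48 (adjusted p = 0.0962) and Slc39a11 at 0.93 (adjusted p = 0.0600).

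Slc39a13, which supplies zinc to the secretory pathway, was the only importer called higher at 22 than at 4 weeks, at 28.0 ± 0.166 against 22.2 ± 0.888 CPM (0.34 ± 0.08, adjusted p = 0.00613). It shares 215 exon bases with the opposite-strand gene Psmc3, which was counted at 150 CPM, so reads of the pair may be mixed. Slc39a4, Slc39a7 and Slc39a9 were called in no comparison. Of its 2594 bases Slc39a7 shares 2084 with Gm20427 on the same strand, so its level of 5.29 CPM may not hold all its reads. Slc39a4, the intestinal zinc importer, was at 0.565 to 0.861 CPM in the group means. The untested Slc39a2, Slc39a5 and Slc39a12 had group means of 0.0540 to 0.289 CPM, where a floor of 3 counts is 0.0911 to 0.104 CPM in a library.

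On the iron side all 11 members were tested. At 22 weeks Aco1, Heph and Hfe were higher and Slc11a1, Steap3 and Tfrc lower in BPH/2J than in BPN/3J. Set against BPN/3J, 4-week BPH/2J had Aco1, Heph, Ireb2, Slc11a2 and Slc40a1 higher and Cp, Fth1, Hfe and Slc11a1 lower. Between ages, Cp, Fth1 and Hfe were higher at 22 weeks and Aco1, Ireb2, Slc11a1, Slc11a2, Slc40a1 and Tfrc lower. In the 3 comparisons 6, 9 and 9 of 11 were called, beside 38.0%, 53.1% and 41.0% of all genes.

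Of the uptake genes, Tfrc, the receptor for iron-loaded transferrin, stood at 36.3, 35.4 and 44.0 CPM in BPN/3J, 52.6, 29.9 and 31.3 at 4 weeks and 27.4, 25.5 and 27.1 at 22 weeks. All 22-week BPH/2J libraries were below the others, and replicate 1 of 4-week BPH/2J was the highest of the 9. Tfrc was called lower at 22 weeks against BPN/3J (-0.53 ± 0.19, adjusted p = 0.0452) and against 4 weeks (-0.51 ± 0.19, adjusted p = 0.0498). The first was lost without any 1 of the 6 libraries of its groups, with adjusted p of 0.0646 to 0.157, and turned to 0.27 (adjusted p = 0.260) with the cardiomyocyte covariate. The age difference of Tfrc shrank to -0.20 (adjusted p = 0.109) without replicate 1 of 4-week BPH/2J, and was also lost without any BPN/3J or any 22-week BPH/2J library (adjusted p of 0.0561 to 0.120), and by limma-voom (adjusted p = 0.0724). It was larger with the covariate, at -0.89 (adjusted p = 0.000374). Without replicate 1, 4-week Tfrc was lower than in BPN/3J (-0.33, adjusted p = 0.0120), whereas with all libraries it was at -0.02 ± 0.18 (adjusted p = 0.929), and at 1.16 (adjusted p = 0.00728) with the covariate.

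Tfrc is abundant in dividing and erythroid cells. Summed erythroid markers were 163 to 206 CPM in BPN/3J, 79.1 to 155 at 4 weeks, with replicate 1 the highest, and 109 to 144 at 22 weeks, with 8 of 12 listed markers in the table and none at 0. Cell cycle markers summed to 29.6 to 53.0 CPM in BPN/3J, 411 to 513 at 4 weeks and 37.3 to 87.6 at 22 weeks, and all 8 were called lower at 22 than at 4 weeks. Their part in the Tfrc values was not tested. Steap3, the endosomal iron reductase, was at 7.77 ± 0.846 CPM in BPN/3J and 6.07 ± 0.284 in 22-week BPH/2J (-0.36 ± 0.13, adjusted p = 0.0459). This call for Steap3 was lost without replicate 1 or 3 of BPN/3J, replicate 3 of 4-week or any library of 22-week BPH/2J (adjusted p of 0.0647 to 0.144), and with upper-quartile scaling (adjusted p = 0.0583) or no low-count filter (adjusted p = 0.0556). Steap3 was at -0.18 (adjusted p = 0.575) with the cardiomyocyte covariate.

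Slc11a2, the endosomal iron carrier DMT1, stood at 16.5, 15.6 and 15.5 CPM in BPN/3J, 21.7, 23.0 and 22.6 at 4 weeks and 18.2, 20.6 and 15.7 at 22 weeks. The 4-week libraries lay above all others. Slc11a2 was higher at 4 weeks than in BPN/3J (0.50 ± 0.10, adjusted p = 0.00150) and lower at 22 than at 4 weeks (-0.31 ± 0.10, adjusted p = 0.0273). The age call was lost without replicate 2 or 3 of 4-week or replicate 1 or 3 of 22-week BPH/2J, with adjusted p of 0.0757 to 0.109. Without replicate 3 of 22-week BPH/2J the 22-week difference of Slc11a2 from BPN/3J, 0.19 ± 0.10 with all libraries (adjusted p = 0.146), became 0.29 (adjusted p = 0.0344). Both calls of Slc11a2 were lost with the cardiomyocyte covariate, at 0.28 (adjusted p = 0.429) against BPN/3J and -0.23 (adjusted p = 0.174) between ages. Its exons share 402 bases with Gm5475 on the other strand.

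In BPH/2J the storage gene Fth1 was higher and the exporter Slc40a1 lower at 22 than at 4 weeks. Fth1, the ferritin heavy chain that oxidises and stores iron, was the most abundant member, at 635, 661 and 544 CPM in BPN/3J, 488, 369 and 395 at 4 weeks and 622, 518 and 620 at 22 weeks. The 4-week libraries lay below all others, and the 22-week lines overlapped. Fth1 was lower at 4 weeks than in BPN/3J (-0.56 ± 0.12, adjusted p = 0.00276) and higher at 22 than at 4 weeks (0.49 ± 0.12, adjusted p = 0.00803). With the cardiomyocyte covariate the first turned to 0.13 (adjusted p = 0.672) and the age difference was 0.26 (adjusted p = 0.0888). The processed copy Fth-ps2 was counted at 0.224 to 0.355 CPM in the group means.

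Slc40a1, ferroportin and the only known iron exporter of mammalian cells, stood at 2.73, 2.15 and 2.84 CPM in BPN/3J, 5.45, 6.58 and 9.61 at 4 weeks and 2.95, 2.28 and 3.32 at 22 weeks. The 4-week libraries did not overlap with the others, and the 22-week lines did. Slc40a1 was 2.80-fold higher at 4 weeks than in BPN/3J (log2 1.49 ± 0.23, adjusted p = 0.000348) and 2.53-fold lower at 22 than at 4 weeks (-1.34 ± 0.23, adjusted p = 0.00112). With the cardiomyocyte covariate the first was 0.78 (adjusted p = 0.338) and the age difference -1.08 (adjusted p = 0.0158).

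Macrophages carry high levels of ferroportin and of Slc11a1 (NRAMP1), the divalent metal carrier of phagosomes. Slc11a1 was at 12.5, 6.64 and 9.51 CPM in BPN/3J, 5.32, 7.03 and 7.21 at 4 weeks and 4.09, 3.96 and 3.87 at 22 weeks. All 22-week BPH/2J libraries lay below the others, and 4-week BPH/2J overlapped with BPN/3J. Slc11a1 was 2.40-fold lower in 22-week BPH/2J than in BPN/3J (-1.26 ± 0.21, adjusted p = 0.00121) and lower than at 4 weeks (-0.72 ± 0.22, adjusted p = 0.0226). Its 4-week difference from BPN/3J was -0.55 ± 0.21 (adjusted p = 0.0447). That call was lost without any 1 library other than replicate 2 of BPN/3J, and the difference was -0.31 (adjusted p = 0.205) without replicate 1 of BPN/3J. limma-voom did not call it either (adjusted p = 0.0606). The age call of Slc11a1 was lost without replicate 2 or 3 of 4-week or any library of 22-week BPH/2J (adjusted p of 0.0552 to 0.0809). With the covariate neither was called, although the 4-week difference from BPN/3J was larger, at -1.32 (adjusted p = 0.0960). The age difference of Slc11a1 was then -0.44 (adjusted p = 0.240).

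Macrophage and monocyte markers followed a like course in some libraries and not in others. The 14 measured markers summed to 703, 409 and 463 CPM in BPN/3J, 473, 669 and 905 at 4 weeks and 242, 276 and 280 at 22 weeks, and none was at 0. The order of the BPN/3J libraries for these markers was that of Slc11a1, with replicate 1 the highest, whereas Slc40a1 was highest in replicate 3. The order of the 4-week libraries was that of both Slc11a1 and Slc40a1. In 22-week BPH/2J the markers were lowest in replicate 1, whereas Slc11a1 was nearly level, at 126, 123 and 120 counts. Slc40a1 overlapped between BPN/3J and 22-week BPH/2J, whereas the summed markers did not. Against BPN/3J, 10 of 14 markers were lower and 1 higher at 22 weeks, and 2 were called at 4 weeks, both higher. Between ages 12 of 14 were lower at 22 weeks. Lyz2, the most abundant, was at 146 ± 38.5 CPM in BPN/3J, 202 ± 69.5 at 4 weeks and 92.2 ± 14.0 at 22 weeks. Neutrophil markers were also read, with 6 of 8 listed markers in the table. They summed to 9.32 to 13.3 CPM in BPN/3J, 3.59 to 4.21 at 4 weeks and 7.53 to 11.4 at 22 weeks. Of 4 tested, 4 were lower at 4 weeks than in BPN/3J and 0 were called at 22 weeks against BPN/3J. Between ages 3 of these were higher at 22 weeks. The part of either list in the Slc40a1 and Slc11a1 results was not tested.

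**Figure D3:**
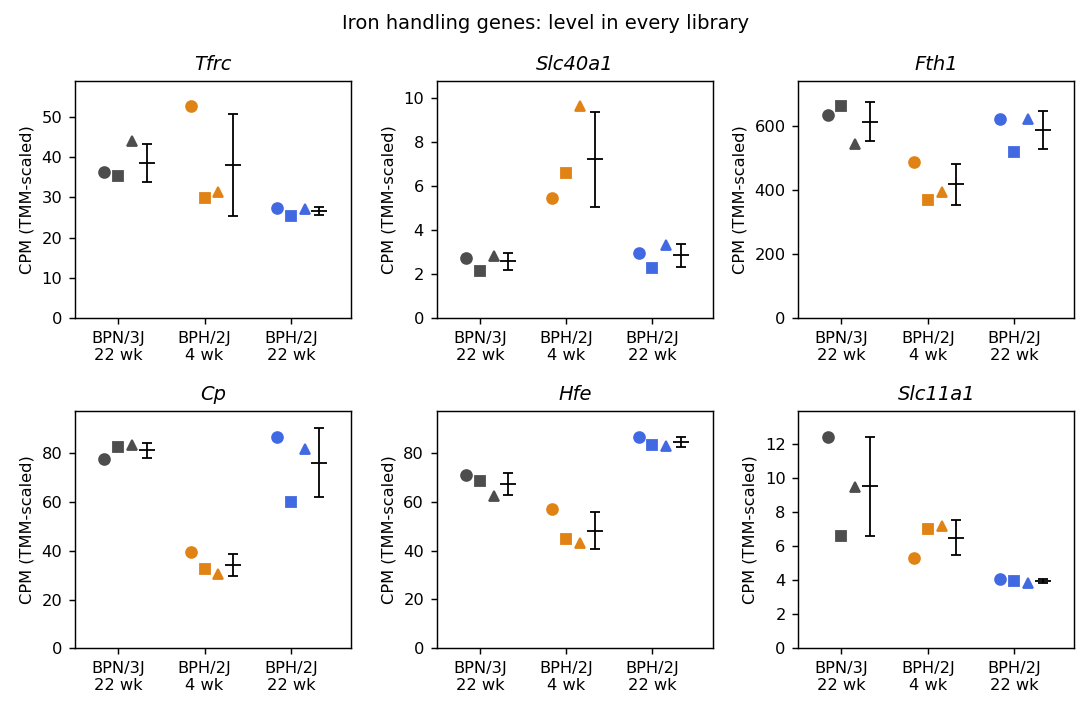
Level of 6 iron genes in every library (vertical axes, CPM after TMM scaling, from 0); circles, squares and triangles are replicates 1, 2 and 3, and the dash with a bar is the mean ± SD (n = 3). The 4-week BPH/2J libraries lie below all others for Cp, Hfe and Fth1 and above all others for Slc40a1, and replicate 1 of 4-week BPH/2J stands at 52.6 CPM for Tfrc.

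Of the ferroxidases, which oxidise iron as ferroportin exports it, Cp (ceruloplasmin) stood at 77.8, 82.4 and 83.5 CPM in BPN/3J, 39.4, 32.5 and 30.6 at 4 weeks and 86.8, 60.2 and 81.6 at 22 weeks. The 4-week libraries lay below all others and the 22-week lines overlapped. Cp was 2.38-fold lower at 4 weeks than in BPN/3J (-1.25 ± 0.13, adjusted p = 2.59e-05) and 2.23-fold higher at 22 than at 4 weeks (1.16 ± 0.13, adjusted p = 0.000102). With the cardiomyocyte covariate the first was -0.51 (adjusted p = 0.173) and the age difference 0.89 (adjusted p = 0.000600). Summed fibroblast markers were 499 to 549 CPM in BPN/3J, 314 to 501 at 4 weeks and 331 to 430 at 22 weeks, with all 7 measured and none at 0. Their part in the Cp result was not tested. Cp shares 108 exon bases with Hps3 on the other strand.

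Heph (hephaestin), the membrane-bound relative of Cp, was at 31.7 ± 3.49 CPM in BPN/3J, 42.4 ± 7.46 at 4 weeks and 40.2 ± 1.23 at 22 weeks. Heph was higher than in BPN/3J at 4 weeks (0.42 ± 0.12, adjusted p = 0.0115) and at 22 weeks (0.34 ± 0.12, adjusted p = 0.0402). The 22-week call of Heph was lost without replicate 1 or 3 of BPN/3J or any library of 22-week BPH/2J, with adjusted p of 0.0687 to 0.125. Its 4-week difference was 0.27 (adjusted p = 0.0197) without replicate 1 of 4-week BPH/2J, and the covariate raised both, to 1.04 (adjusted p = 0.00750) at 4 weeks and 0.76 (adjusted p = 0.00484) at 22 weeks.

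Hfe, a partner of Tfrc that is mutated in hereditary haemochromatosis, was at 70.8, 68.5 and 62.3 CPM in BPN/3J, 56.9, 44.5 and 43.0 at 4 weeks and 86.6, 83.3 and 83.0 at 22 weeks. The 3 groups did not overlap, with 22-week BPH/2J the highest. Hfe was lower at 4 weeks than in BPN/3J (-0.48 ± 0.10, adjusted p = 0.00202) and higher at 22 than at 4 weeks (0.81 ± 0.10, adjusted p = 0.000152). At 22 weeks it was higher than in BPN/3J (0.33 ± 0.10, adjusted p = 0.0235), a call lost without replicate 2 (adjusted p = 0.0523) or 3 (adjusted p = 0.0882) of BPN/3J or replicate 1 of 22-week BPH/2J (adjusted p = 0.0632). The 4-week difference of Hfe from BPN/3J turned to 0.09 (adjusted p = 0.733) with the cardiomyocyte covariate, and the 22-week difference was 0.71 (adjusted p = 0.00169).

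The RNA-binding regulators Aco1 and Ireb2 were both highest at 4 weeks. Aco1, which is an aconitase when it holds an iron-sulphur cluster and an iron regulatory protein without it, was at 48.0, 43.7 and 45.0 CPM in BPN/3J, 62.2, 61.9 and 60.8 at 4 weeks and 52.5, 57.2 and 52.7 at 22 weeks. The 3 groups did not overlap. Aco1 was higher than in BPN/3J at 22 weeks (0.25 ± 0.06, adjusted p = 0.00788) and at 4 weeks (0.44 ± 0.06, adjusted p = 0.000141), and lower at 22 than at 4 weeks (-0.19 ± 0.06, adjusted p = 0.0277). The age call of Aco1 was lost without replicate 2 or 3 of 4-week or replicate 1 or 3 of 22-week BPH/2J (adjusted p of 0.0698 to 0.114). All 3 calls of Aco1 were lost with the cardiomyocyte covariate, at 0.21 (adjusted p = 0.151), 0.38 (adjusted p = 0.0914) and -0.17 (adjusted p = 0.117). Ireb2, which is degraded when iron is plentiful, was at 92.5, 95.4 and 94.8 CPM in BPN/3J, 107, 108 and 107 at 4 weeks and 89.8, 90.6 and 87.0 at 22 weeks. The 4-week libraries of Ireb2 were the highest (0.19 ± 0.05 over BPN/3J, adjusted p = 0.00653), and 22-week BPH/2J was lower than 4-week (-0.27 ± 0.05, adjusted p = 0.00133). The 4-week call of Ireb2 was lost with the covariate (0.16, adjusted p = 0.341).

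Levels of different genes were set side by side as CPM per kilobase of the deposited gene length, averaged over the 9 libraries. Fth1 led at 623, above 99.7% of tested genes, followed by Slc39a1 at 41.4, Slc30a1 at 26.9, Slc30a5 at 22.2, Slc39a10 at 19.9 and Hfe at 18.6. Mt1 ranked 11 among the 34 members at 12.3 per kilobase and Mt2 ranked 23 at 3.62. Slc40a1 was at 1.25 and Slc11a1 at 1.81. Among tested members Slc39a4 (0.300) and Slc39a8 (0.275) were the lowest.

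Other genes of metal handling were taken from a list of 85 iron, haem, iron-sulphur, zinc and copper genes. Of these 76 were in the table and 72 were tested. At 22 weeks 15 were higher and 14 lower in BPH/2J (40.3% called), at 4 weeks 22 were higher and 20 lower than in BPN/3J (58.3%), and between ages 19 were higher and 10 lower at 22 weeks (40.3%). These shares stand beside 38.0%, 53.1% and 41.0% of all genes. Among 21 haem genes 6 were higher and 5 lower at 22 weeks, and among 17 iron-sulphur cluster genes 6 were higher and 2 lower.

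At 22 weeks the largest difference between the lines on this list was in haem synthesis. Alad, an early zinc-dependent enzyme of haem synthesis, stood at 20.6, 18.0 and 16.2 CPM in BPN/3J, 127, 117 and 125 at 4 weeks and 111, 109 and 100 at 22 weeks. No BPH/2J library of Alad came near BPN/3J. Alad was 5.83-fold higher at 22 weeks (log2 2.54 ± 0.09, adjusted p = 1.60e-08) and 6.73-fold higher at 4 weeks (2.75 ± 0.09, adjusted p = 8.41e-09). The haem-degrading enzyme Hmox1 was called in no comparison, at 45.7 ± 5.25, 45.3 ± 2.48 and 41.9 ± 4.37 CPM.

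Ftl1, the ferritin light chain, stood at 240, 242 and 243 CPM in BPN/3J, 574, 481 and 497 at 4 weeks and 530, 550 and 590 at 22 weeks. It was 2.30-fold higher at 22 weeks (1.20 ± 0.08, adjusted p = 2.08e-06) and 2.14-fold higher at 4 weeks (1.10 ± 0.08, adjusted p = 1.88e-06) than in BPN/3J. Its near-identical copy Ftl2, which was looked at after the values of Ftl1 were seen, held 3247 to 3419 counts in the BPN/3J libraries and 0 to 5 in the BPH/2J libraries. How the counting divided reads between these copies was not tested, so the size of the Ftl1 difference is uncertain. Summed over Ftl1 and Ftl2 the level was 357 ± 1.04 CPM in BPN/3J, 518 ± 49.6 at 4 weeks and 557 ± 30.7 at 22 weeks, still without overlap between the lines. Ncoa4, the receptor that delivers ferritin to lysosomes, was at 64.5 ± 2.60, 85.1 ± 5.60 and 79.5 ± 3.79 CPM, higher in BPH/2J at 4 weeks (adjusted p = 0.000466) and 22 weeks (adjusted p = 0.00473). Both calls of Ncoa4 were lost with the cardiomyocyte covariate (0.21, adjusted p = 0.368, and 0.18, adjusted p = 0.243).

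Bmp6, the growth factor through which liver endothelium signals iron stores to hepatocytes, stood at 399, 392 and 342 CPM in BPN/3J, 54.3, 66.2 and 45.6 at 4 weeks and 240, 151 and 194 at 22 weeks. The 3 groups did not overlap. Bmp6 was 6.82-fold lower at 4 weeks than in BPN/3J (-2.77 ± 0.18, adjusted p = 9.04e-07), and still 1.94-fold lower at 22 weeks (-0.95 ± 0.16, adjusted p = 0.00136), the latter lost with the cardiomyocyte covariate (-0.83, adjusted p = 0.0631). Abcg2, an exporter of porphyrins and haem, was at 298 ± 18.5, 126 ± 19.3 and 214 ± 10.1 CPM, and Exoc6, an exocyst subunit of transferrin cycling, at 119 ± 7.43, 73.4 ± 5.83 and 107 ± 2.75. Both were lower at 4 weeks than in BPN/3J (adjusted p = 4.15e-06 for Abcg2 and 1.67e-05 for Exoc6). The covariate moved Abcg2 from -1.24 to -0.69 (adjusted p = 0.0202) and Exoc6 from -0.70 to -0.35 (adjusted p = 0.0936). Slc48a1, which moves haem out of lysosomes, was at 107 ± 6.41, 68.2 ± 2.93 and 116 ± 8.97 CPM and was higher at 22 than at 4 weeks (0.77 ± 0.07, adjusted p = 3.42e-05), as was Exoc6 (0.55 ± 0.07, adjusted p = 0.000189).

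**Figure D4:**
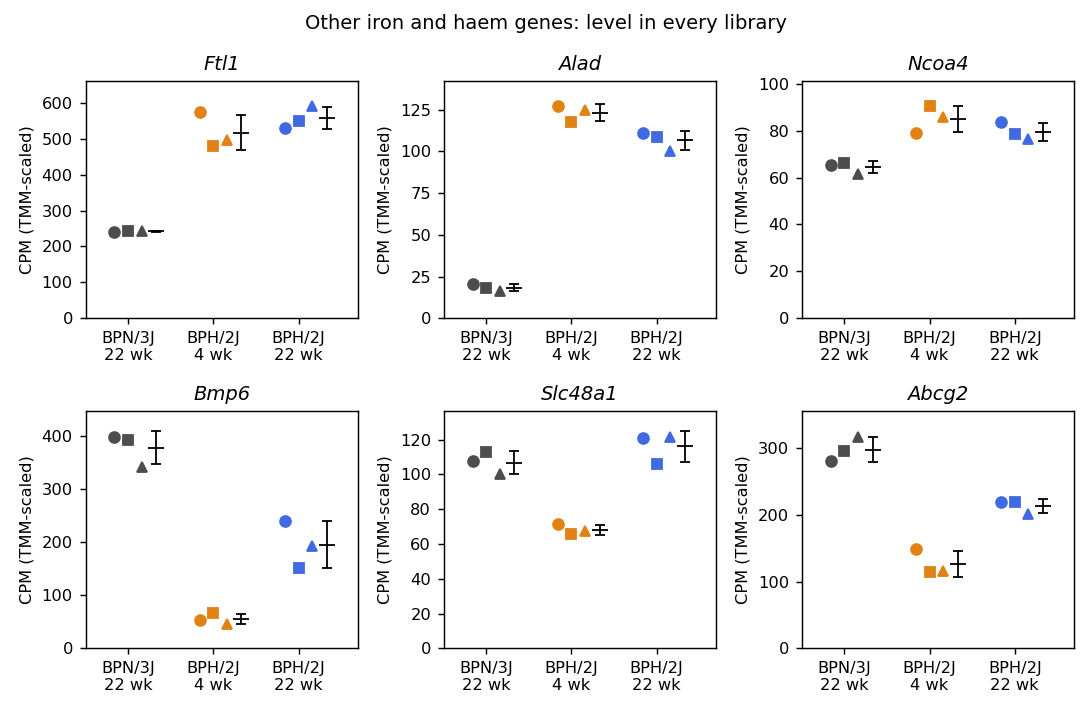
Level of 6 other metal handling genes in every library (vertical axes, CPM after TMM scaling, from 0); circles, squares and triangles are replicates 1, 2 and 3, and the dash with a bar is the mean ± SD (n = 3). Alad, Ftl1 and Ncoa4 are higher in all BPH/2J libraries than in BPN/3J, whereas Bmp6, Slc48a1 and Abcg2 are lowest in the 4-week libraries.

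Genes that fell with age included Pcbp1, an iron chaperone that loads ferritin, at 277 ± 9.17 CPM at 4 weeks and 202 ± 7.48 at 22 weeks (-0.46 ± 0.06, adjusted p = 0.000170). The copper importer Slc31a1 was at 33.1 ± 3.00 and 22.5 ± 2.46 CPM (-0.56 ± 0.09, adjusted p = 0.000943). Snx3, a sorting nexin that recycles Tfrc, was at 274 ± 43.7 and 181 ± 5.31 CPM (-0.60 ± 0.10, adjusted p = 0.00135), or -0.35 (adjusted p = 0.00904) with the cardiomyocyte covariate. Against BPN/3J at 22 weeks the metalloreductase Steap4 (26.8 ± 2.05 to 14.1 ± 1.95 CPM, adjusted p = 7.58e-05), the haemopexin receptor Lrp1 (136 ± 11.6 to 94.9 ± 4.96, adjusted p = 0.000709) and the haemoglobin scavenger receptor Cd163 (30.5 ± 7.02 to 8.71 ± 0.505, adjusted p = 0.00119) were lower in BPH/2J. With that covariate Lrp1 was at -0.37 (adjusted p = 0.0636), and Cd163 went from -1.81 to -3.02 (adjusted p = 0.000430). Cd163 is also 1 of the macrophage markers summed above. Trf, transferrin itself, was scarce at 1.52 ± 0.154, 1.17 ± 0.117 and 0.764 ± 0.261 CPM and was lower at 22 weeks than in BPN/3J (-0.99 ± 0.25, adjusted p = 0.0111), a call lost with the covariate (-1.18, adjusted p = 0.0826). Between ages Trf was at -0.62 ± 0.26 (adjusted p = 0.0776), and at -0.92 (adjusted p = 0.0212) without replicate 3 of 22-week BPH/2J. Ftl1 likewise differed between ages only without replicate 1 of 4-week BPH/2J (0.19, adjusted p = 0.0261, against 0.11 ± 0.08, adjusted p = 0.300, with all libraries).

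The authors' deposited table of their own comparisons called 14, 20 and 11 of the members in the 3 comparisons, all in the direction found here. The members called here and not in the authors' deposited table were Steap3 at 22 weeks, Slc30a5 at 4 weeks, and Aco1 and Slc39a1 between ages.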

How the data were processed

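RNA sequencing counts were analysed in 9 libraries of cardiac endothelium, with 3 libraries for each strain and age named by the labels. Per the submitters' processing notes, the authors worked with the mouse build mm9 and with TopHat2 2.0.13 and Bowtie2, featureCounts (Subread), edgeR, CASAVA 1.8.2 and FastQC. The strand setting and annotation release are not given in the sources used here. In 1 table the authors deposited raw counts per gene and library, CPM values that equal each count over its column total, log2 fold changes, p-values with false discovery rates, and gene lengths. All 18094 rows were used for library totals, and 28806840 to 32913813 counts per library set the precision. Limits for a count of 0 (3 counts, 95%) cover counting error only.

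From the deposited counts, genes were kept by filterByExpr (15277 of 18094), scaled by the trimmed mean method (TMM) and fitted in 1 quasi-likelihood model on group in edgeR 4.0.16 (R 4.3.3), with two-sided tests. The p-values were adjusted by Benjamini-Hochberg across every tested gene, and 0.05 was the threshold. The SE is the absolute log2 difference divided by the root of F. Printed CPM values carry the TMM scaling. The scripts were tested on simulated data. Deposited gene lengths served for levels per kilobase, and promoters came from RefSeq (GRCm38.p6), whose build differs from mm9, so no count was tied to their coordinates. Overlapping exons were read from GENCODE M21.

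Members and lists were chosen with earlier results of these data known. Values in every library are given for 13 members whatever their result and for each member called with an absolute log2 difference of at least 0.58. Of the other pathway genes, the 3 with the smallest adjusted p per direction and comparison are named, with Ftl1, Trf, Hmox1, Bmp6 and Ncoa4. Of the genes this rule names, 1 is not reported here. Alternatives were other scalings and filters, DESeq2 1.42.0, limma-voom (limma 3.58.1), the replicate number as a block, a cardiomyocyte covariate, fits on only the groups compared, a stricter threshold of 0.01, and fits without each library in turn. Figures were drawn with matplotlib 3.10.9 in Python 3.11.15.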

Additional observations from a re-analysis of the deposited data

How the results depend on the processing

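Across 19 alternatives, 1624 of 1786 values of the 94 gene differences named kept their direction and their side of the threshold, 133 lost a call, 10 gained one and 19 changed sign, and the cause was not tested. Median-of-ratios scaling changed 1 call (Slc30a5 at 4 weeks), and no scaling moved the median of all genes by more than 0.1 on the log2 scale.

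The cardiomyocyte covariate cut the members called at 4 weeks against BPN/3J to 3 higher and 4 lower and the other pathway genes to 18, and left 5 members lower between ages. Over all tested genes 3189 were called at 4 weeks with it, and 2245 were lower between ages, against 8115 and 3218 without it. At an adjusted p threshold of 0.01, 3 members were lower between ages, and 18 (22 weeks against BPN/3J) and 19 (between ages) other pathway genes were called. Leaving out single libraries gave 5 to 7 members higher and 6 to 8 lower at 22 weeks, 11 to 12 and 8 to 10 at 4 weeks, and 4 higher and 3 to 10 lower between ages. The other pathway genes numbered 24 to 38, 34 to 42 and 20 to 33, and all genes called 4362 to 7117, 6968 to 8682 and 4606 to 7383.

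With the covariate, signs changed against BPN/3J at 22 weeks for Cp (0.389), Fth1 (0.389), Slc40a1 (-0.296) and Tfrc (0.271), at 4 weeks for Fth1 (0.134), Hfe (0.0894) and Tfrc (1.16), and between ages for Ftl1 (-0.00695). Signs also changed with single libraries left out, over ranges of -0.191 to 0.0553 for Cp and -0.143 to 0.0227 for Fth1 at 22 weeks (the positive values without replicate 2 of 22-week BPH/2J). At 4 weeks the ranges were -0.00749 to 0.0763 for Slc39a8 (negative without replicate 3 of BPN/3J), -0.330 to 0.125 for Tfrc (negative with all libraries, positive without replicate 3 of BPN/3J or replicate 2 or 3 of 4-week BPH/2J) and -0.0712 to 0.0859 for Hmox1 (positive without replicate 3 of BPN/3J or replicate 1 or 2 of 4-week BPH/2J). Between ages the range was -0.0729 to 0.220 for Mt2 (negative without replicate 1 of 4-week or replicate 3 of 22-week BPH/2J). Of the changed signs, Tfrc with the covariate at 4 weeks (adjusted p = 0.00728) passed the threshold and the others did not.

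Libraries with equal replicate numbers showed no shared deviation (residual correlations of -0.161 to 0.0774 over 9 pairs, none over 0.1). With 3 libraries in each group this cannot exclude a shared preparation, and the labels do not state whether the numbers pair samples. With the replicate number as a block, 5261, 7723 and 5758 genes were called against 5810, 8115 and 6257, and 7 of the 94 named differences lost their call: Tfrc (-0.48, adjusted p = 0.0545), Aco1 (-0.19, adjusted p = 0.0515) and Slc39a1 (-0.18, adjusted p = 0.0565) between ages, Heph (0.35, adjusted p = 0.0555) and Steap3 (-0.35, adjusted p = 0.0707) at 22 weeks, and Slc11a1 (-0.53, adjusted p = 0.0755) and Slc30a5 (0.15, adjusted p = 0.0526) at 4 weeks. Members with few counts, among them Mt2 with 31 to 119, are the least precise.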
